A study of Mus musculus with 18 samples.

Results

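The 44 imprinted genes described here were taken from a given list of gene symbols. All 44 were found among the 25239 genes of the count table, 43 by symbol and 1, Nespas, under the name Gnasas1, of which RefSeq lists Nespas as a synonym. All 44 passed the filter on low counts that left 16582 genes for testing. The genes were read across 18 RNA-seq libraries from 9 conditions with 2 replicates each. Wild-type cells were E14Tg2a, a mouse embryonic stem cell line. TKO cells were derived from the same line by removing the open reading frames of Tet1, Tet2 and Tet3 with CRISPR, 1 gene after another, so that the TKO genotype rests on a clonal line. The TET proteins are enzymes that oxidise 5-methylcytosine in DNA, which is a step towards its removal.

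Both genotypes were kept in 2i/LIF and then taken through Activin A and Fgf to epiblast-like cells (EpiLCs), which resemble the epiblast after implantation and were counted as day 0. EpiLCs were then cultured in suspension as aggregates in GK15 medium, either without cytokines or with BMP4, BMP8a, SCF, LIF and EGF, which direct them towards primordial germ cell-like cells (PGCLCs). Wild-type libraries came from EpiLCs, from days 2 and 6 without cytokines and from day 6 with cytokines. TKO libraries came from EpiLCs and from days 2 and 6 with and without cytokines. The wild-type libraries from day 6 with cytokines are labelled as aggregates, but a figure legend of the study states that these cells were sorted as SSEA1+/CD61+ and that the others were taken as whole aggregates. They are called sorted here. In the comparison of genotypes at day 6 with cytokines, genotype and sorting therefore cannot be told apart. The study calls its RNA-seq replicates biological, without saying in the sources used here whether they came from separate cultures. The p-values therefore measure the spread between these libraries, taken over all 9 conditions together.

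Genomic imprinting is the expression of a gene from only the maternally or only the paternally inherited copy, set by DNA methylation that is laid down differently in egg and sperm and is kept through the divisions of the embryo. Most imprinted genes lie in clusters around an imprinting control region, a stretch of DNA methylated on one parental copy, and many act in growth of the fetus and placenta or in the brain. In primordial germ cells the methylation marks are erased before new marks are set according to the sex of the embryo. The counts analysed here add both parental copies together, so they measure the total RNA of each gene and carry no information on which copy it came from.

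The total per library ranged from 11286050 to 41257861 counts (median 16305168), and the ribosomal RNA gene Rn45s took between 16.2% and 47.6% of it. Levels are given below as normalised counts, meaning counts divided by the DESeq2 size factor of the library, and they are compared for one gene across libraries and never between genes. Differences are log2 fold changes with their standard errors (SE), and a gene was called changed when its adjusted p was below 0.05 (quasi-likelihood test of edgeR, with p-values adjusted by Benjamini-Hochberg across 16582 genes). In TKO EpiLCs, Tet1 fell to 737 and 967 from 6227 and 6036 normalised counts and Tet3 to 131 and 159 from 821 and 1019, while Tet2 had 31.7 and 102 against 186 and 125 and was not called. The counts span whole genes and so do not measure the deleted reading frames alone. One condition stood apart in its replicates. The wild-type libraries from day 6 without cytokines differed from each other by more than 2 log2 units at 5.14% of the 16582 genes and at 11 of the 44 imprinted genes. In the other 8 conditions this share was between 0.398% and 2.1% of all genes and between 0 and 5 imprinted genes. The test takes the spread of a gene from all 9 conditions, not from the libraries compared alone. Fitted alone, TKO against wild-type at day 6 without cytokines gave 6087 calls over all genes (4727 higher and 4461 lower in the shared fit) and 21 imprinted genes (26). Day 2 without cytokines gave 7137 (2985 higher and 2462 lower) and 31 (21).

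Imprinted genes were called in TKO cells in every comparison with wild-type. Their shares were near those of all genes in EpiLCs and at day 6 with cytokines, and calls without cytokines were more frequent among all genes too. In EpiLCs, 3 of the 44 were higher in TKO cells (Peg10, Sgce and Impact) and 2 were lower (Mest and Magel2), against 7.57% of all tested genes higher and 3.18% lower. By day 2 without cytokines 5 were higher and 16 lower, with 18% and 14.8% of all genes. By day 6 without cytokines 8 were higher and 18 lower, with 28.5% and 26.9% of all genes. Without wild-type replicate 1 of that condition the split was 14 higher and 14 lower, with 27.7% and 24.9% of all genes. At day 6 with cytokines 6 were higher and 4 lower, with 11.3% and 7.53% of all genes. The share of imprinted genes that were lower was thus above the background at day 2 and day 6 without cytokines, where 36.4% and 40.9% of the list fell, and the share that were higher was below it, at 11.4% and 18.2%. Without the named replicate both day 6 shares were 31.8%, so that the higher share was then above the background as well.

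The median log2 fold change of the 44 genes was -0.08 in EpiLCs, -0.64 at day 2 without cytokines, -0.74 at day 6 without cytokines and 0.00 at day 6 with cytokines. The median of all genes lay between 0.00 and 0.05 in these comparisons. Among the 26 genes known for expression from the paternal copy, 9 were lower and 3 higher at day 2 without cytokines. At day 6 without cytokines 12 were lower and 5 higher. Among the 11 known for maternal expression, the counts were 3 lower and 2 higher and then 2 lower and 3 higher. Of all genes 14.8% were lower and 18% higher at day 2, and 26.9% and 28.5% at day 6. Part of the paternal split at day 6 rests on wild-type replicate 1. Without it the log2 fold change was -0.42 for Plagl1 and 2.96 for Peg13, while Mest stayed at -4.89 and Peg12 at -3.76. In all, 35 of the 44 genes were called in at least 1 of the 4 comparisons, against 68.8% of all genes (79.5% of the list). Of these, 20 were called only as lower in TKO cells, 8 only as higher and 7 as higher in some and lower in others. The split by direction was not computed over all genes, so it is not set against a background. The 4 comparisons use different libraries.

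**Figure D1:**
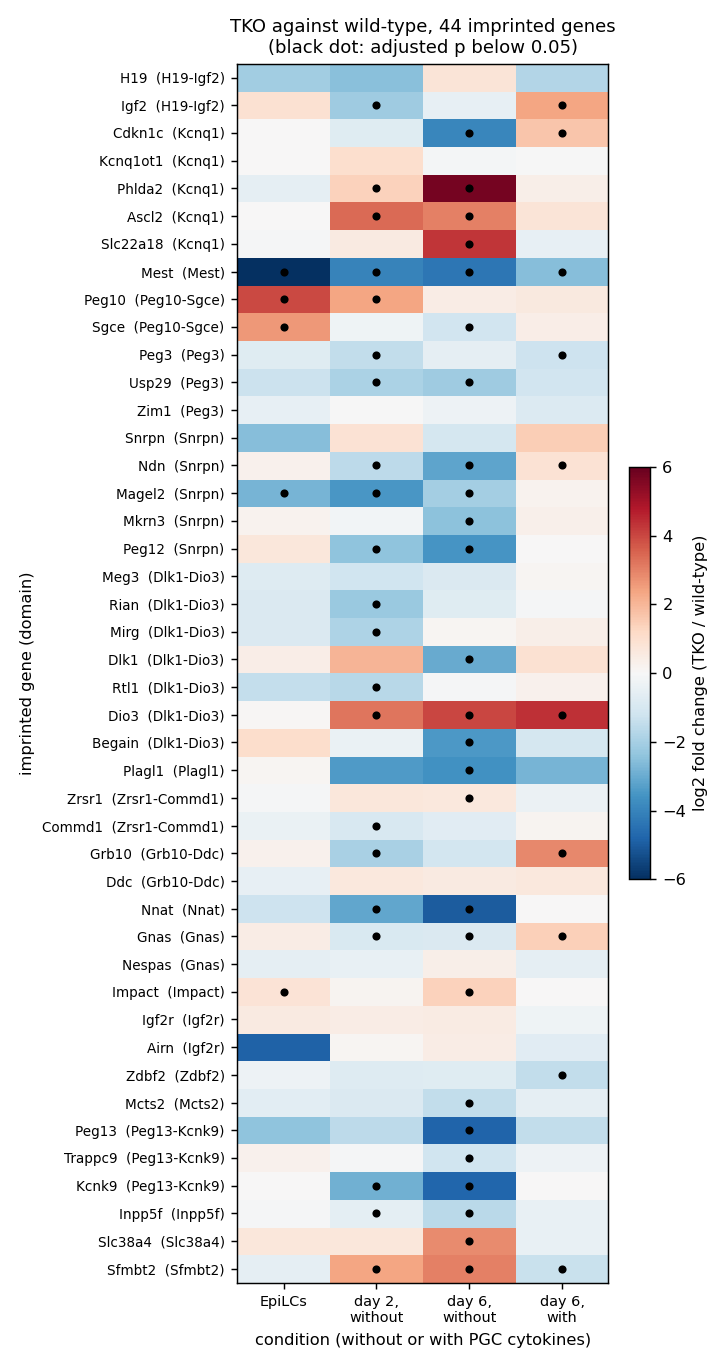
Heatmap of the log2 fold change of TKO against wild-type for the 44 imprinted genes (rows, with the imprinted domain in parentheses) in EpiLCs and at day 2 without, day 6 without and day 6 with cytokines (columns), blue for lower and red for higher in TKO cells, with a black dot where the adjusted p was below 0.05. Mest is blue with a dot in all 4 columns, Dio3 is red with a dot in the last 3, and most dots in the middle columns lie on blue fields.

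The markers of other cell types also differed between these cultures. At day 6 without cytokines the summed normalised counts of 4 neural markers (Pax6, Sox1, Neurog2 and Tubb3) were 20871 and 22756 in wild-type and 1473 and 2079 in TKO libraries, and all 4 were lower in TKO cells. The summed counts of 6 PGC markers (Nanog, Prdm14, Tfap2c, Prdm1, Dppa3 and Nanos3) were 109.7 and 105.4 in wild-type and 10418 and 9502 in TKO libraries at the same time. Of these 6, 5 were called higher in TKO cells, and the log2 fold change of the remaining marker was not above 0. The day 2 neural sums without cytokines were 4797 and 3526 against 1183 and 1581, and the PGC sums 1676 and 1874 against 9933 and 8168. At day 6 with cytokines the PGC sums were 14885 and 13904 in sorted wild-type and 13045 and 12811 in TKO libraries. There 4 of the 6 were called lower in TKO cells, and 1 had a log2 fold change above 0. The part of these differences in cell composition in the changes of the imprinted genes was not tested, and in such bulk libraries fewer cells of a type and less RNA per cell cannot be told apart. In EpiLCs the neural sums were 522.1 and 476.9 in wild-type against 253 and 244.1 in TKO libraries, with Neurog2 at 0 in both TKO libraries. The PGC sums there were 567.1 and 476.4 against 805.6 and 1613. The 4 markers of the EpiLC state itself (Fgf5, Otx2, Pou3f1 and Dnmt3b) summed to 52892 and 57810 against 25502 and 24303. Of these 4, 2 were called lower in TKO EpiLCs and 2 had log2 fold changes above 0 that were not called. The sum therefore does not stand for all 4 markers, and their part in the changes of the imprinted genes was not tested.

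Single markers of mesenchyme (Col1a1) and extraembryonic endoderm (Gata4, Gata6 and Sox17) were also higher in TKO cells at day 6 without cytokines. The 3 mesenchyme markers (Col1a1, Col3a1 and Pdgfra) summed to 499.6 and 394.9 in wild-type and 2619 and 2570 in TKO libraries, with 1 of the 3 called. The extraembryonic endoderm markers (Gata4, Gata6, Sox17, Afp and Ttr) summed to 12.69 and 1333 in wild-type and 427.5 and 305.4 in TKO libraries, with 3 of the 4 tested called and Afp at 0 in all 4 libraries. In EpiLCs the endoderm sums were 8.032 and 5.559 against 137.9 and 91.26, and at day 6 with cytokines 75.09 and 115.8 against 438.4 and 535, with the same 3 genes higher in each case. Their part in the changes of the imprinted genes was not tested.

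Mest had the largest fold change of the 44 genes over these 4 comparisons and was the only 1 called in all 4. It is expressed from the paternal copy and encodes a protein of the hydrolase fold family, expressed in embryonic mesoderm. In EpiLCs it had 1249.8 and 959 normalised counts in wild-type and 22.8 and 9.9 in TKO libraries, a log2 fold change of -6.01 ± 0.67 (SE, adjusted p = 0.000161). Without cytokines the day 2 libraries of wild-type cells had 5062 and 1634 and the TKO libraries 163 and 259.5, a log2 fold change of -4.01 ± 0.55 (SE, adjusted p = 6.9e-05). The day 6 levels without cytokines were 2999 and 8519.6 against 271 and 297, with a log2 fold change of -4.32 ± 0.55 (SE, adjusted p = 1.17e-05). No TKO library overlapped the wild-type libraries of its condition, and the difference held when any library was left out in these 3 comparisons. At day 6 with cytokines, where the wild-type cells were sorted, the levels were 249 and 431 against 42 and 71.2 and the log2 fold change was -2.56 ± 0.58 (SE, adjusted p = 0.00653). This call was lost without wild-type replicate 2 (adjusted p = 0.0508) or without TKO replicate 1 (adjusted p = 0.0723). TKO aggregates at day 2 with cytokines had 14.7 and 9.93.

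Within TKO cells Mest also changed with the culture. It rose from EpiLCs to day 6 without cytokines by a log2 fold change of 4.08 ± 0.66 (SE, adjusted p = 0.000537). It was lower with than without cytokines at day 6, by -2.28 ± 0.58 (SE, adjusted p = 0.034), although this call was lost when any of the 4 libraries was left out. The same pair of changes was measured in wild-type cells, with 2.39 ± 0.50 (SE, adjusted p = 0.000751) from EpiLCs to day 6 without cytokines and -4.04 ± 0.54 (SE, adjusted p = 1.35e-05) between the day 6 conditions. The difference between the genotypes in the change from EpiLCs to day 6 without cytokines, 1.69 ± 0.83 (SE, adjusted p = 0.126), was not called. In the GENCODE annotation 23.1% of the exon bases of Mest are shared with the opposite-strand gene Copg2, and fragments that overlap more than 1 gene were left out of the counts.

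The promoter of Mest is shown with those of Nnat and Plagl1. These 3 paternally expressed genes were among those lowest in TKO cells at day 6 without cytokines. The start sites shown lie in CpG-rich DNA, and all 3 windows hold the hexamer described next. Without wild-type replicate 1 the day 6 log2 fold changes of Nnat and Plagl1 were -2.03 and -0.42. Each run holds 250 bases before and 50 bases after a RefSeq start site (build GRCm38.p6), read 5′ to 3′ on the strand of the gene, with the hexamer TGCCGC or its reverse complement GCGGCA in capitals. TGCCGC is the sequence to which ZFP57, a zinc finger protein that keeps methylation at imprinting control regions, binds when its CpG is methylated.
Mest, chr6:30737800-30738099, plus strand: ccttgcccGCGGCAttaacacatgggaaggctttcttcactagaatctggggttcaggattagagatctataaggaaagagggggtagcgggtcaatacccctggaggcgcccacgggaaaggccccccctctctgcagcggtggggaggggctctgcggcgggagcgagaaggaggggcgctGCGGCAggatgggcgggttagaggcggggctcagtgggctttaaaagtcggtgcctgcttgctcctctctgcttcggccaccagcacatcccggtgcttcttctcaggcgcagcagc
Nnat, chr2:157559828-157560127, plus strand: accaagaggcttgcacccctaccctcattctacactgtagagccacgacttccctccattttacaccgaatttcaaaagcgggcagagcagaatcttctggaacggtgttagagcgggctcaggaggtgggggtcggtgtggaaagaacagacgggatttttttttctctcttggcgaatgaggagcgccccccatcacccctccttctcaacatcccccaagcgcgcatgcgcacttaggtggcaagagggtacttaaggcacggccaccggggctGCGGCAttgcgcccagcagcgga
Plagl1, chr10:13090582-13090881, plus strand: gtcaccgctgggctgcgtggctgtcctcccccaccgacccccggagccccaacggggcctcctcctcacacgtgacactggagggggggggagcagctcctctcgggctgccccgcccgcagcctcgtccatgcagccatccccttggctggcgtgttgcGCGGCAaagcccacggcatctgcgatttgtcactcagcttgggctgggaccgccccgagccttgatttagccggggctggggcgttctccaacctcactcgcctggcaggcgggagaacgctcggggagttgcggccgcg
The Mest window holds 2 copies of the hexamer and 17 CpGs, the Nnat window 1 copy and 17 CpGs, and the Plagl1 window 1 copy and 26 CpGs. Another Mest start site, not shown, has 8 CpGs and 0 copies in its window. The window of Peg12, also paternally expressed and lower there, has 12 CpGs and 0 copies. RefSeq start sites were at hand for 34 of the 44 genes, and 12 of their 57 promoter windows (21.1%) held the hexamer on either strand, against 11.6% of all 32817 windows of the same length. The median number of CpGs was 15 in the windows of imprinted genes and 7 in all windows. The hexamer itself contains a CpG, and the shares were not compared at equal CpG content. Of the 12 windows, 2 are overlapping windows of Mest that hold the same copies. DNA methylation was not measured in these libraries, and a match to the hexamer is a description of the sequence.

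A microRNA hairpin, Mir335, lies within the Mest gene on the same strand, and its mature products are given because their host is the gene with the largest fold change. Capitals mark the seed, bases 2 to 8, through which a microRNA pairs with its targets.
mmu-miR-335-5p: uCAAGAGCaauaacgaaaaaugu
mmu-miR-335-3p: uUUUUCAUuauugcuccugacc
Mature microRNAs were not measured in these libraries, so only the level of the host gene is known.

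**Figure D2:**
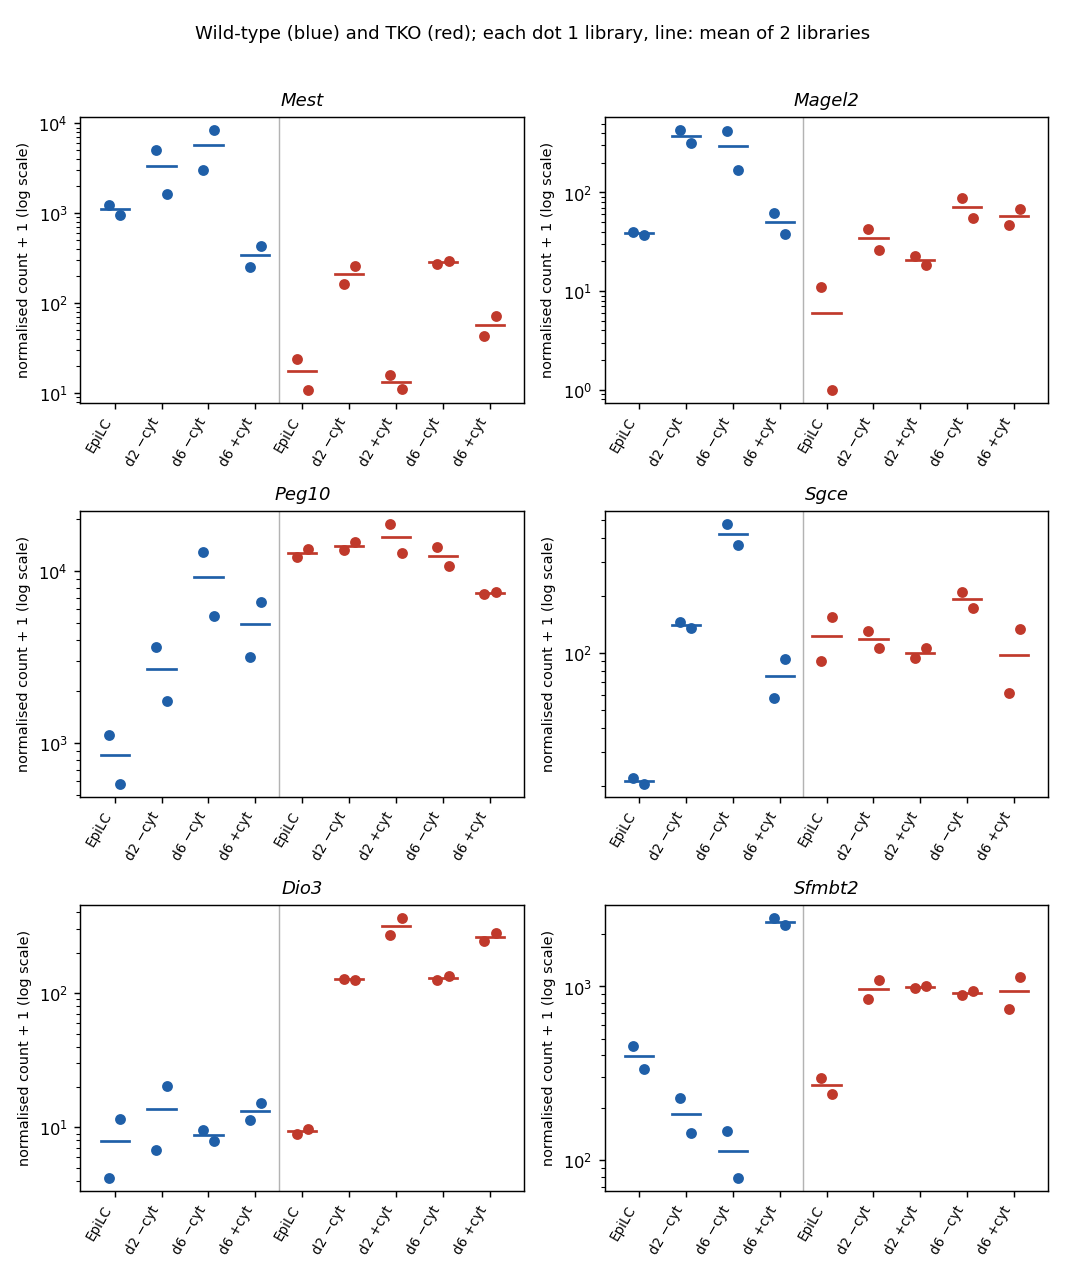
Normalised counts plus 1 (log axis) of Mest, Magel2, Peg10, Sgce, Dio3 and Sfmbt2 in each of the 18 libraries (dots) with the mean of the 2 replicates (lines), wild-type in blue and TKO in red, by condition (EpiLC, d2 and d6 for days 2 and 6, with or without cytokines, cyt). The TKO dots of Mest lie below the wild-type dots of the same condition throughout, those of Peg10 lie at 12011 and 13469.5 already in EpiLCs, and those of Dio3 rise above 100 from day 2 on while all wild-type dots stay below 20.

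Genes of the Snrpn domain on chromosome 7, a paternally expressed cluster that corresponds to the Prader-Willi region in humans and is active in the nervous system, were lower in TKO aggregates without cytokines, 3 of the 5 at day 2 and 4 of the 5 at day 6, when 14.8% and 26.9% of all genes were lower. Magel2, which encodes a regulator of protein ubiquitination and trafficking, was called in EpiLCs, where it had 38.6 and 36.1 normalised counts in wild-type and 9.92 and 0 in TKO libraries. In day 2 aggregates without cytokines Magel2 had 433 and 317 against 41.5 and 25.2 and a log2 fold change of -3.50 ± 0.59 (SE, adjusted p = 0.000379). The EpiLC value of Magel2, -2.80 ± 0.75 (SE, adjusted p = 0.0278), was not called without either wild-type library or without TKO replicate 2 (adjusted p up to 0.139), nor when the EpiLC libraries were fitted alone (adjusted p = 0.0597). Its day 6 value, -2.03 ± 0.55 (SE, adjusted p = 0.00526), was not called without wild-type replicate 1 (adjusted p = 0.0619) or without TKO replicate 2 (adjusted p = 0.0628). Both TKO libraries were below both wild-type libraries in these 3 comparisons.

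Ndn, which encodes a growth suppressor of neurons, rose in wild-type cells without cytokines at the same times as the neural markers. It had 85.1 and 83.4 normalised counts in wild-type EpiLCs, 629 and 552 at day 2 and 3225 and 2978 at day 6 without cytokines, and in TKO cells 139.9 and 57.2, 192 and 211 and 378 and 299. The log2 fold change of TKO against wild-type was -1.58 at day 2 and -3.17 ± 0.28 (SE, adjusted p = 2.79e-07) at day 6 without cytokines. Peg12, of the same cluster, had 1117 and 1552 against 121 and 105 at day 6 without cytokines, with -3.54 ± 0.56 (SE, adjusted p = 8.08e-05). At day 2 the wild-type replicates of Peg12 stood at 574 and 96.3, and without replicate 1 the log2 fold change was -0.65 and was not called (adjusted p = 0.195). Mkrn3, which encodes a ring finger protein, was called at day 6 without cytokines only, at 534 and 580.2 against 90.5 and 111 normalised counts. At day 6 with cytokines none of Magel2, Mkrn3 and Peg12 was called. Ndn was higher there in TKO cells, with 288 and 238 in sorted wild-type and 459 and 509.7 in TKO libraries, a log2 fold change of 0.88. It was not called when any of the 4 libraries was left out (adjusted p up to 0.192) or when libraries were scaled by their size alone (adjusted p = 0.08). Snrpn itself had at most 55 counts in any library and was not called in any of the 4 comparisons. Its exons are shared in part with Snurf, which was at 0 in all 18 libraries, so the Snrpn counts cover only the fragments assigned to a single gene.

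Peg10 and Sgce are a pair of paternally expressed neighbours on chromosome 6 that start next to each other on opposite strands. Peg10, a gene derived from a retrotransposon and needed for the placenta, had 1116 and 578 normalised counts in wild-type EpiLCs and 12011 and 13469.5 in TKO EpiLCs, a log2 fold change of 3.95 ± 0.48 (SE, adjusted p = 0.000235). The day 2 levels without cytokines were 3619 and 1749.6 against 13252 and 14825, with 2.36 ± 0.45 (SE, adjusted p = 0.000958). By day 6 without cytokines wild-type libraries had reached 12926 and 5464 and TKO libraries stood at 13731 and 10739, and the groups overlapped. The overlap came from wild-type replicate 1, since replicate 2 lay below both TKO libraries. Sgce, which encodes epsilon-sarcoglycan of the cell membrane, had 20.9 and 19.5 in wild-type and 89.3 and 153 in TKO EpiLCs, a log2 fold change of 2.62 ± 0.40 (SE, adjusted p = 0.0012). By day 6 without cytokines Sgce had gone the other way, at 476 and 368 against 208 and 172, with -1.13 ± 0.34 (SE, adjusted p = 0.0109). That was not called without wild-type replicate 1 (adjusted p = 0.0517) or TKO replicate 2 (adjusted p = 0.0867). From EpiLCs to day 6 without cytokines Peg10 rose in wild-type cells by a log2 fold change of 3.46 and Sgce by 4.39, against -0.06 and 0.64 in TKO cells, neither of which was called. The difference between genotypes in this change was -3.52 ± 0.62 (SE, adjusted p = 0.000434) for Peg10 and -3.75 ± 0.53 (SE, adjusted p = 6.55e-05) for Sgce.

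The Kcnq1 domain on chromosome 7 showed opposite changes among its maternally expressed genes at day 6 without cytokines. Cdkn1c, which encodes the cyclin-dependent kinase inhibitor p57 that restrains cell division, had 10549.5 and 9202 normalised counts in wild-type and 702 and 570.4 in TKO libraries, a log2 fold change of -3.94 ± 0.30 (SE, adjusted p = 6.7e-08). It was not called in EpiLCs, at 554 and 442 against 568 and 418. Phlda2, which encodes a pleckstrin homology protein that limits growth of the placenta, had 0.453 and 9.26 in wild-type and 201 and 160.3 in TKO libraries at day 6 without cytokines, a log2 fold change of 5.76 ± 0.63 (SE, adjusted p = 2.25e-06). It had started from 559 and 462 and 372 and 306 in EpiLCs. Without wild-type replicate 1, which held 1 count of Phlda2, that value was 4.29. Phlda2 thus fell in wild-type cells from EpiLCs to day 6 without cytokines (log2 fold change -7.23 ± 0.63 SE, adjusted p = 1.75e-07), whereas the TKO change of -0.91 ± 0.42 (SE, adjusted p = 0.121) was not called. With cytokines the day 6 levels were 135 and 134 and 235 and 109. Phlda2 at day 2 without cytokines had 72.1 and 61.4 against 201 and 153 and was called (1.38 ± 0.44 SE, adjusted p = 0.0263), but not when any of the 4 libraries was left out (adjusted p up to 0.161).

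Ascl2, a transcription factor of the trophoblast, followed the course of Phlda2. In day 2 aggregates without cytokines the wild-type libraries held 3 and 2 counts and the TKO libraries 26 and 18. The ratio was 11.3 with a 95% exact interval of 4.51 to 36.6 that covers counting error only, and the log2 fold change 3.38 ± 0.72 (SE, adjusted p = 0.0023). By day 6 wild-type libraries without cytokines held 13 and 0 counts and TKO libraries 27 and 26, with 3.01 ± 0.63 (SE, adjusted p = 0.000879), which was not called when only these 4 libraries were fitted (adjusted p = 0.0618). Without wild-type replicate 1 that value was 7.96, since the remaining wild-type library held 0 counts, and without replicate 2 it was 2.39. Slc22a18, which encodes a transporter, had 3 and 0 counts in wild-type and 17 and 17 in TKO libraries at day 6 without cytokines, a ratio of 20.2 (95% exact interval 6.36 to 103). It was called (log2 fold change 4.27 ± 0.72 SE, adjusted p = 0.000149), and the value was 7.33 without wild-type replicate 1 and 3.78 without replicate 2. Kcnq1ot1, the paternally expressed antisense RNA of the domain that silences its neighbours in cis, was not called in any of the 4 comparisons and varied between replicates, from 3921 and 857 in wild-type at day 6 without cytokines to 2595 and 1791 in TKO cells. At day 6 with cytokines Cdkn1c was higher in TKO cells, at 150.2 and 199 in sorted wild-type and 731 and 375 in TKO libraries, with 1.65 ± 0.29 (SE, adjusted p = 0.00127), and Phlda2, Ascl2 and Slc22a18 were not called there. The markers of trophoblast (Cdx2, Elf5, Gata3 and Krt8) summed to 343.2 and 112.3 in wild-type and 1359 and 1598 in TKO libraries at day 6 without cytokines and to 1571 and 1746 against 918.5 and 1789 at day 2, where the groups overlapped. Their part in the higher Phlda2 and Ascl2 was not tested.

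**Figure D3:**
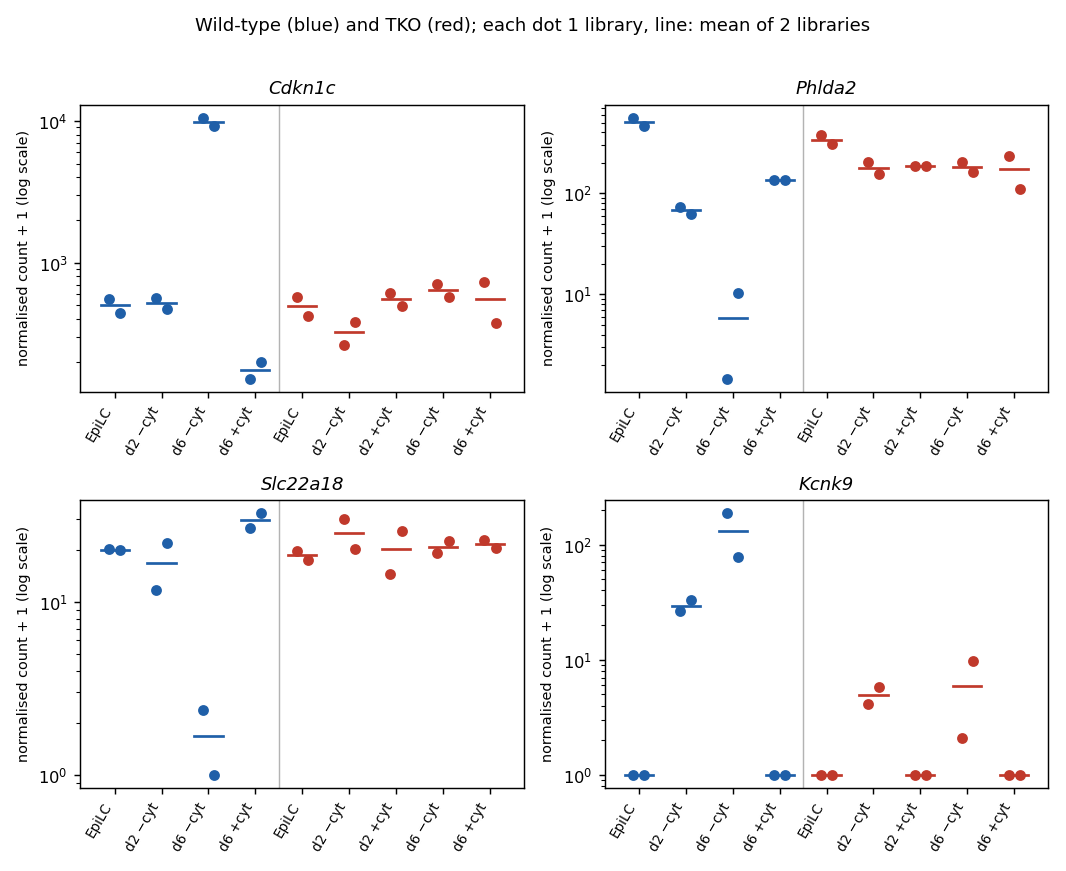
Normalised counts plus 1 (log axis) of Cdkn1c, Phlda2, Slc22a18 and Kcnk9 in each of the 18 libraries (dots) with the mean of the 2 replicates (lines), wild-type in blue and TKO in red, by condition (EpiLC, d2 and d6 for days 2 and 6, with or without cytokines, cyt). Wild-type cells at day 6 without cytokines stand apart for all 4 genes, high for Cdkn1c and Kcnk9 and low for Phlda2 and Slc22a18, and the TKO dots of the same condition do not overlap them.

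The Dlk1-Dio3 domain on chromosome 12 carries maternally expressed noncoding RNAs (Meg3, Rian and Mirg) and paternally expressed protein-coding genes (Dlk1, Rtl1 and Dio3). Other annotated genes lie on the strand opposite to Rtl1, and no strand setting was stated for the counting. The counts of Rtl1 may therefore include RNA of the opposite strand, which was not tested. The noncoding RNAs were high in wild-type cells at day 2 without cytokines. Rian, the host of many small nucleolar RNAs, had 10209.8 and 10578 normalised counts in wild-type and 2474 and 2117 in TKO libraries there, a log2 fold change of -2.21 ± 0.38 (SE, adjusted p = 0.00046). Mirg, the host of a large microRNA cluster, had 752 and 823 against 253 and 189.8, with -1.86 ± 0.43 (SE, adjusted p = 0.0039), and without TKO replicate 2 its adjusted p was 0.0504. Rtl1, a retrotransposon-derived gene of the placenta that overlaps microRNA hairpins on the opposite strand, had 912 and 1083 against 411 and 228, and its value of -1.67 was not called without wild-type replicate 2 or TKO replicate 2 (adjusted p up to 0.151). Meg3, a maternally expressed RNA used as a marker of the domain, had 6345 and 4875 against 3088 and 1974 and was not called (log2 fold change -1.18 ± 0.63 SE, adjusted p = 0.169). None of these 4 genes was called between genotypes in EpiLCs or at day 6, except that with the replicate number as a block Rtl1 was called in EpiLCs (log2 fold change -1.55, adjusted p = 0.0222, against -1.41 and 0.0811 without it). Without wild-type replicate 1, Meg3 and Mirg were called higher in TKO cells at day 6 without cytokines. From EpiLCs to day 6 with cytokines all 4 genes fell in wild-type cells (log2 fold changes from -3.49 to -2.34). In TKO cells Rian, Mirg and Rtl1 fell over the same step, and Meg3 was not called (adjusted p = 0.114).

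The mature microRNAs whose hairpins lie in Mirg and Rtl1 are given next, chosen as known products of the cluster and to show a shared seed, with bases 2 to 8 in capitals.
mmu-miR-410-3p, in Mirg: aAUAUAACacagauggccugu
mmu-miR-154-3p, in Mirg: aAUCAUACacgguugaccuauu
mmu-miR-377-3p, in Mirg: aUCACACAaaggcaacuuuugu
mmu-miR-453, in Mirg: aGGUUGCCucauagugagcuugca
mmu-miR-496a-5p, in Mirg: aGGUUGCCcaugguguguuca
mmu-miR-127-3p, antisense to Rtl1: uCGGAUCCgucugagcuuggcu
mmu-miR-433-3p, antisense to Rtl1: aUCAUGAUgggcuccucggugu
Within the 44 genes RefSeq places 33 hairpins with 63 mature microRNAs, and 10 hairpins lie in Mirg, 3 in Rian and 13 opposite to Rtl1. Only 2 seeds are shared by more than 1 of the 63, one of them by miR-453 and miR-496a-5p, which both begin with the same 8 bases.

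At the end of the domain Dio3, which encodes the deiodinase that inactivates thyroid hormone, changed in the opposite direction. Its levels in the 8 wild-type libraries lay between 3.21 and 19.4 normalised counts and in TKO EpiLCs at 7.94 and 8.8. In TKO cells it stood at 127 and 124 at day 2 without cytokines, 271 and 361 at day 2 with, 125 and 134 at day 6 without and 242 and 277 at day 6 with cytokines. The log2 fold change of TKO against wild-type was 3.22 ± 0.45 (SE, adjusted p = 7.82e-05) at day 2 and 4.02 ± 0.47 (SE, adjusted p = 4.73e-06) at day 6 without cytokines. With cytokines it was 4.38 ± 0.45 (SE, adjusted p = 2.06e-05) at day 6. Dio3 was the only 1 of the 44 genes that was called higher in these 3 comparisons together, and it was not called in EpiLCs (0.08). Dlk1, which encodes a Notch-like transmembrane protein, and Begain, its neighbour, which encodes a scaffold protein of synapses, were lower in TKO cells at day 6 without cytokines. Dlk1 had 1819 and 509.5 against 164 and 121 and Begain 941 and 193 against 57.1 and 44.2, with log2 fold changes of -3.01 ± 0.79 (SE, adjusted p = 0.00453) and -3.46 ± 0.57 (SE, adjusted p = 0.000119). Without wild-type replicate 1 these values were -1.82, which was not called (adjusted p = 0.0555), and -1.91, which was (adjusted p = 0.00135).

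Sfmbt2 and Slc38a4 are expressed from the paternal copy in the extraembryonic lineages. Sfmbt2, which encodes a Polycomb group protein needed for trophoblast, fell in wild-type cells without cytokines from 453 and 335 to 145 and 77.6 normalised counts and rose in TKO cells from 296 and 239.7 to 896 and 947. The log2 fold changes of TKO against wild-type were 2.37 ± 0.29 (SE, adjusted p = 2.31e-05) at day 2 and 3.03 ± 0.30 (SE, adjusted p = 7.69e-07) at day 6 without cytokines. In sorted wild-type cells at day 6 with cytokines Sfmbt2 was at 2484 and 2253, above the TKO libraries at 742 and 1132, with -1.34 ± 0.27 (SE, adjusted p = 0.00348), and without TKO replicate 1 this was not called (adjusted p = 0.0535). Slc38a4, which encodes an amino acid transporter of the placenta and liver, had 158 and 711 in wild-type and 3429.6 and 2601 in TKO libraries at day 6 without cytokines, with 2.84 ± 0.50 (SE, adjusted p = 0.000214). This value was 2.10 without wild-type replicate 1 and 4.28 without replicate 2. With cytokines it had 3853 and 4013 against 2676 and 3090.5 and was not called.

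A set of genes rested on 1 of the wild-type replicates without cytokines. Peg13, a paternally expressed noncoding RNA inside an intron of Trappc9, had 35.3 and 2.78 normalised counts in replicates 1 and 2 of wild-type EpiLCs, 198 and 2.33 at day 2 and 2050.4 and 4.63 at day 6 without cytokines. Plagl1, which encodes a zinc finger protein that regulates other imprinted genes, had 238 and 9.32 and then 912 and 52.1. Nnat, which encodes neuronatin of the endoplasmic reticulum in neurons, had 1599 and 143 and 4858 and 328. H19, the maternally expressed noncoding RNA next to Igf2, had 53 and 15.6, 272 and 17.9 and 292 and 62.5. Replicate 1 was higher in all of these, although nothing in the labels ties the replicates of different days together. In sorted wild-type cells with cytokines both replicates had Peg13 (41.7 and 36), Plagl1 (144 and 480.0) and H19 (1198 and 1669). The TKO replicates lay closer together, for example 39.8 and 32.8 for Peg13 and 103 and 54.3 for Nnat at day 6 without cytokines.

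The genotype differences of these genes moved with that library. For day 6 without cytokines the log2 fold change of TKO against wild-type was -4.80 ± 1.66 (SE, adjusted p = 0.0224) for Peg13, -3.63 ± 1.18 (SE, adjusted p = 0.0165) for Plagl1 and -5.01 ± 1.11 (SE, adjusted p = 0.00143) for Nnat. Without wild-type replicate 1 it was 2.96 for Peg13, with the sign turned (adjusted p = 0.188), -0.42 for Plagl1 (adjusted p = 0.763) and -2.03 for Nnat (adjusted p = 0.0516). Peg13 and Plagl1 also lost their calls without either TKO library (adjusted p from 0.0706 to 0.117) and when the day 6 libraries were fitted alone (adjusted p = 0.13 and 0.0762), and Peg13 with the replicate number as a block (adjusted p = 0.0518). At day 2 the value of Nnat, -3.12 ± 1.03 (SE, adjusted p = 0.0304), became -0.55 without wild-type replicate 1 (adjusted p = 0.715), and it was not called without either TKO library (adjusted p up to 0.146). H19 was not called between genotypes in any comparison. The day 6 replicates also differed in markers: Ttr, a gene of visceral endoderm and choroid plexus, had 5.44 and 1331, while the 4 neural markers summed to 20871 and 22756.

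**Figure D4:**
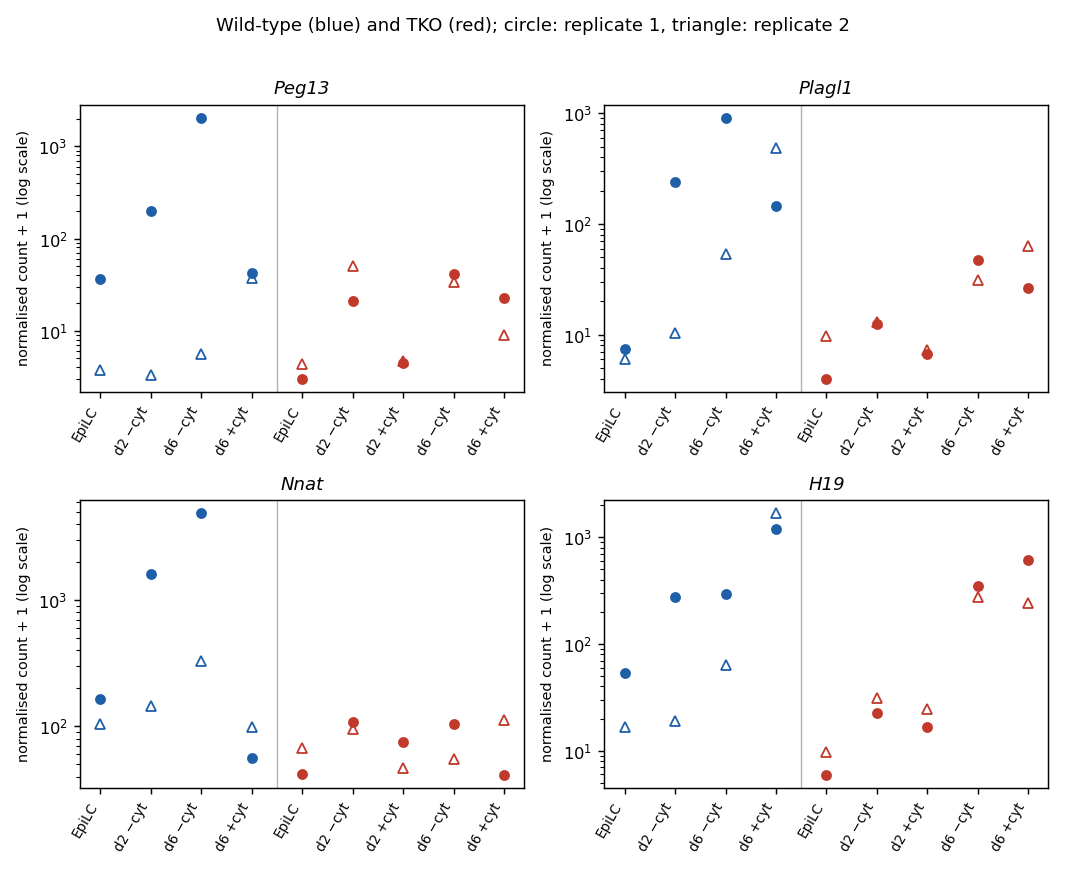
Normalised counts plus 1 (log axis) of Peg13, Plagl1, Nnat and H19 in each of the 18 libraries, with replicate 1 as filled circles and replicate 2 as open triangles, wild-type in blue and TKO in red, by condition (EpiLC, d2 and d6 for days 2 and 6, with or without cytokines, cyt). In wild-type cells without cytokines the circle lies above the triangle for all 4 genes, widest for Peg13 at day 6 with 2050.4 against 4.63.

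Kcnk9, which encodes a potassium channel of neurons and lies beside Peg13 and Trappc9 on chromosome 15, was present without cytokines only. It had 0 counts in both libraries of wild-type and TKO EpiLCs, of sorted wild-type cells and of TKO cells with cytokines at days 2 and 6. Without cytokines it rose in wild-type cells to 25.3 and 31.9 normalised counts at day 2 and 186 and 76.4 at day 6, at least 40.4-fold above EpiLCs when these are set at 3 counts per library. TKO cells had 3.11 and 4.81 and 1.08 and 8.83, and the log2 fold change against wild-type was -2.87 ± 0.82 (SE, adjusted p = 0.0223) at day 2 and -4.74 ± 0.80 (SE, adjusted p = 0.00056) at day 6. The day 2 value was not called without wild-type replicate 2 or without either TKO library (adjusted p up to 0.145). Trappc9, which encodes a subunit of a vesicle tethering complex, was lower in TKO cells at day 6 without cytokines, at 765 and 891 against 352 and 353 (-1.21 ± 0.24 SE, adjusted p = 0.000512). Trappc9 rose in wild-type cells from EpiLCs to day 6 without cytokines by a log2 fold change of 1.59.

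Igf2, the paternally expressed growth factor next to H19, varied widely between replicates. At day 6 with cytokines it had 217 and 1602 in sorted wild-type and 5396 and 4064 in TKO libraries, a log2 fold change of 2.37 ± 0.72 (SE, adjusted p = 0.0327). This was not called without wild-type replicate 1 (1.56) or without either TKO library (adjusted p up to 0.189). Igf2 at day 2 without cytokines was lower in TKO cells, 682 and 263 against 107 and 113, with an adjusted p of 0.0458 that passed the threshold in 5 of 12 alternative settings. Igf2r, which encodes the receptor that clears IGF2 and is expressed from the maternal copy, was not called in any of the 4 comparisons, with log2 fold changes from -0.24 to 0.53. Grb10, which encodes an adaptor that dampens insulin and growth factor signals, had 508 and 403 in sorted wild-type and 2815 and 3833 in TKO libraries at day 6 with cytokines (2.86 ± 0.54 SE, adjusted p = 0.00212). The order was the opposite at day 2 without cytokines, with 6750.3 and 8949.9 against 2126 and 1991 (-1.97 ± 0.52 SE, adjusted p = 0.00927). The Grb10 value at day 2 was not called without wild-type replicate 2 or without either TKO library, with adjusted p up to 0.0678. Gnas, which encodes the stimulatory G protein subunit, showed the same reversal on a smaller scale, with -0.91 at day 2 and -0.84 at day 6 without cytokines and 1.43 ± 0.18 (SE, adjusted p = 0.000118) with cytokines. In the GENCODE annotation 22% of its exon bases are shared with other genes, Nespas among them.

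Peg3, a zinc finger gene of the paternal copy, was lower in TKO cells at day 2 without cytokines, at 2581 and 2696 against 923 and 1008 (-1.48 ± 0.26 SE, adjusted p = 0.000547). It was also lower at day 6 with cytokines (-1.26 ± 0.26 SE, adjusted p = 0.00365), where without wild-type replicate 1 its adjusted p was 0.0525. With the replicate number as a block Peg3 was also called in EpiLCs (-0.75, adjusted p = 0.0437) and at day 6 without cytokines (-0.56, adjusted p = 0.04). Its neighbour Usp29, which shares its bidirectional promoter and encodes a ubiquitin-specific protease, was lower at day 2 (-1.89 ± 0.51 SE, adjusted p = 0.0102) and day 6 (-2.13 ± 0.48 SE, adjusted p = 0.00155) without cytokines. The day 2 call of Usp29 was lost without either TKO library (adjusted p up to 0.0747) and its day 6 call when only these libraries were fitted (adjusted p = 0.0683), and the day 6 value was -1.29 without wild-type replicate 1. In every one of the 4 comparisons the log2 fold changes of both were below 0. Impact, which encodes a regulator of the translation kinase GCN2, was higher in TKO cells at day 6 without cytokines (1.40 ± 0.26 SE, adjusted p = 0.00029). Its call in EpiLCs, at a log2 fold change of 0.84, was lost under 5 of 12 alternatives, with adjusted p up to 0.359. Mcts2, which encodes a translation factor, and Inpp5f, which encodes a phosphoinositide phosphatase, were lower at day 6 without cytokines, with log2 fold changes of -1.49 and -1.62. The day 2 call of Inpp5f (-0.57) was lost under 10 of 12 alternatives (adjusted p up to 0.3). Zrsr1 was higher at day 6 without cytokines by 0.63, which was not called without the filter, with only these libraries fitted, or without wild-type replicate 2 or either TKO library (adjusted p up to 0.273). Zrsr1 and Mcts2 arose as retrocopies of genes that are still present, so fragments that matched both copies are missing from their counts. Zdbf2 was called at day 6 with cytokines (-1.48 ± 0.36 SE, adjusted p = 0.0109) but not without wild-type replicate 2 or TKO replicate 1 (adjusted p up to 0.116). Commd1, at day 2 (-0.94), lost its call without wild-type replicate 2 or either TKO library (adjusted p up to 0.181) and when libraries were scaled by their size alone (adjusted p = 0.0758).

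The 9 genes that were called in none of the 4 comparisons were H19, Kcnq1ot1, Zim1, Snrpn, Meg3, Ddc, Nespas, Igf2r and Airn. Of these Kcnq1ot1, Meg3, Nespas and Igf2r were called higher in TKO cells at day 6 without cytokines when wild-type replicate 1 was left out. Airn and Zim1 had few counts, with at most 29 and 99 in a library, so that small differences were not detectable at this depth. Airn, the paternally expressed antisense RNA of Igf2r, had 0 counts in both TKO EpiLC libraries and 6 and 0 in wild-type EpiLCs. Nespas, the antisense RNA of the Gnas domain, ranged from 129.7 to 454 normalised counts over the 18 libraries, and Ddc, which encodes the enzyme that makes dopamine and serotonin, from 21.8 to 255.

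Across all 9 conditions together 40 of the 44 genes varied (82.9% of all tested genes did, by the same edgeR fit), the exceptions being Commd1, Kcnq1ot1, Airn and Snrpn. In wild-type cells the step from EpiLCs to day 6 without cytokines raised 23 imprinted genes and lowered 7, against 31.7% and 29% of all genes, with a median log2 fold change of 1.42. The same step with cytokines, into sorted cells, raised 14 and lowered 9, against 22.4% and 18.2% of all genes. Between the 2 wild-type day 6 conditions 10 genes were higher with cytokines and 20 lower, against 29.6% and 28.6%. These 3 comparisons share libraries. Genes that were lower in the sorted cells than without cytokines included Cdkn1c (-5.78), Grb10 (-3.98), Mest (-4.04) and Ndn (-3.52), and genes that were higher included Phlda2 (5.35), Sfmbt2 (4.42), Slc38a4 (3.24) and H19 (3.02, values as log2 fold changes).

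Fewer imprinted genes were called over these steps in TKO cells, and the shares called of all genes were smaller too. The difference between genotypes was tested gene by gene, only for the step without cytokines, and the number of calls was not tested. From EpiLCs to day 6 without cytokines 11 imprinted genes rose and none fell (by edgeR, against 15.7% and 12.3% of all genes), and at an unadjusted p below 0.05 the counts were 15 and 2, with 14 and 1 by DESeq2. With cytokines 11 rose and 3 fell, against 14.9% and 10.4%. Between day 6 with and without cytokines no imprinted gene was higher and 3 were lower by edgeR (Mest, Rian and Gnas), against 2.56% and 3.05% of all genes. At an unadjusted p below 0.05 the counts were 3 and 10, by DESeq2 they were 0 and 4, and by edgeR none was called when any of the 4 libraries was left out. H19 and Igf2 rose in both genotypes by day 6. In TKO cells their log2 fold changes from EpiLCs were 5.48 and 4.74 without and 5.94 and 6.01 with cytokines, and in wild-type cells 2.60 and 6.12 without and 5.61 and 4.54 with.

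The change from EpiLCs to day 6 without cytokines differed between the genotypes for 17 of the 44 genes, 6 with a higher and 11 with a lower value in TKO cells, against 18.5% and 18.5% of all genes. Without replicate 1 of the wild-type day 6 libraries the split was 13 and 11, against 19% and 18.2%. For 11 of them (Begain, Peg12, Cdkn1c, Sgce, Peg10, Ndn, Dlk1, Mkrn3, Inpp5f, Trappc9 and Gnas) wild-type cells rose more. The TKO change was within 1 log2 unit of 0 for 9 of these 11, the exceptions being Ndn (1.77) and Peg12 (1.42). Phlda2, Slc22a18 and Ascl2 fell in wild-type cells (log2 fold changes of -7.23, -4.19 and -4.39) and had TKO changes of -0.91, 0.16 and -1.38, none of which was called. Dio3 had a difference of 3.94 ± 0.73 (SE, adjusted p = 0.000713) with wild-type levels of 3.21 and 10.6 in EpiLCs and 8.61 and 6.95 at day 6. Without replicate 2 of the wild-type EpiLCs the Dio3 difference was 2.63 and was not called (adjusted p = 0.141). Sfmbt2 and Slc38a4 fell in wild-type cells, with log2 fold changes of -1.77 and -1.35, and had TKO changes of 1.78, which was called, and 0.80, which was not.

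**Figure D5:**
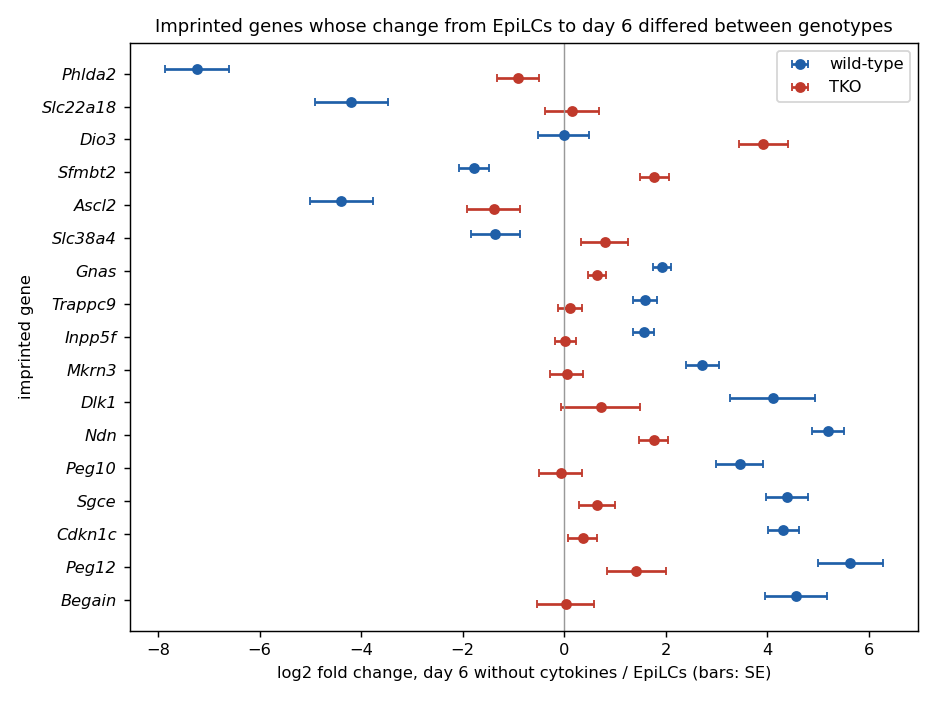
Log2 fold change from EpiLCs to day 6 without cytokines (x axis, bars are the SE of the fit) in wild-type (blue) and TKO (red) cells for the 17 imprinted genes whose change differed between the genotypes at an adjusted p below 0.05. The red points lie nearer to 0 than the blue points for all genes except Dio3 and Sfmbt2, with Phlda2 at the top moving by -7.23 in wild-type and -0.91 in TKO cells.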

How the data were processed

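Total RNA was depleted of ribosomal RNA and sequenced as 18 libraries. According to the submitters' processing notes and the methods of the study, reads were trimmed with Trim Galore 0.5.0 and cutadapt 1.16, aligned to mm10 with STAR 2.7.1a and counted per gene over refGene exons with Subread 1.5.2, and the authors deposited raw counts. No strand setting was stated for the counting although the library kit keeps strand, and fragments that matched several places or genes were not counted, so overlapping and antisense genes and recent gene copies are uncertain.

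From the deposited counts, 33 lines without values were dropped and 16582 genes passed edgeR's expression filter. The quasi-likelihood test of edgeR 4.0.16 (R 4.3.3, TMM factors, 9 group means, 9 residual degrees of freedom) gave log2 fold changes, with SE taken as their absolute size over the root of the F statistic. Benjamini-Hochberg adjustment ran over all tested genes. DESeq2 1.42.0 supplied size factors for the levels and an alternative test. The procedure was run on simulated counts with the same spread for all genes and conditions. That setting does not cover the wider spread between the wild-type day 6 libraries without cytokines. Depth set the precision of low genes, and intervals cover counting error only. The genes given with values in every library were those called in at least 1 comparison of TKO with wild-type, the 16 with the largest log2 fold change first, with their neighbours in the same domain. The genes and lists were chosen with earlier results of these data known. Alternatives changed the scaling, filter, test, threshold, block and libraries. Promoters and microRNAs came from RefSeq (GRCm38.p6) and exon overlaps from GENCODE vM21. Allelic expression and DNA methylation were not analysed here. One gene of the marker lists is not reported here.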

Additional observations from a re-analysis of the deposited data

Results flagged for a closer look

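For 17 of the 44 imprinted genes the change from EpiLCs to day 6 without cytokines differed between the genotypes, tested as the interaction of genotype and time (edgeR, adjusted p below 0.05 over all tested genes). The values that follow are the TKO change minus the wild-type change on the log2 scale, with both changes given. In the Kcnq1 domain it was -3.96 for Cdkn1c (wild-type 4.32, TKO 0.36), 6.32 for Phlda2 (-7.23 and -0.91), 4.35 for Slc22a18 (-4.19 and 0.16) and 3.01 for Ascl2 (-4.39 and -1.38). In the Snrpn domain it was -3.43 for Ndn (5.20 and 1.77), -2.67 for Mkrn3 (2.72 and 0.05) and -4.22 for Peg12 (5.64 and 1.42). For the pair on chromosome 6 it was -3.52 for Peg10 (3.46 and -0.06) and -3.75 for Sgce (4.39 and 0.64).

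In the Dlk1-Dio3 domain the difference was -3.39 for Dlk1 (4.11 and 0.72), -4.54 for Begain (4.56 and 0.03) and 3.94 for Dio3 (-0.01 and 3.93). It was 3.55 for Sfmbt2 (-1.77 and 1.78), 2.15 for Slc38a4 (-1.35 and 0.80), -1.29 for Gnas (1.93 and 0.64), -1.48 for Trappc9 (1.59 and 0.11) and -1.54 for Inpp5f (1.57 and 0.02). Dlk1 lost its call without 6 of the 8 libraries (adjusted p up to 0.15), Slc38a4 without replicate 1 of the wild-type EpiLCs, of the TKO EpiLCs or of the TKO day 6 cells (adjusted p up to 0.0842), and Dio3 without replicate 2 of the wild-type EpiLCs (2.63, adjusted p = 0.141). Without replicate 1 of the wild-type day 6 cells the differences of Ascl2, Slc22a18, Begain and Slc38a4 were 7.96, 7.41, -2.98 and 1.41. Without replicate 2 they were 2.39, 3.86, -5.26 and 3.59. Ascl2 and Slc38a4 were not called when only these 8 libraries were fitted (adjusted p = 0.0564 and 0.0841). The summed neural markers rose over the same step from 522.1 and 476.9 to 20871 and 22756 normalised counts in wild-type cells and from 253 and 244.1 to 1473 and 2079 in TKO cells, and their part in these differences was not tested.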

How the results depend on the processing

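The number of imprinted genes called, of 44, is given for each comparison under the alternatives that moved it by over 1.5 times, with the range when 1 library was left out. For TKO against wild-type the 5 calls in EpiLCs became 3 at an adjusted p below 0.01 and 8 without a filter (3 to 6 with a library left out). The 21 at day 2 became 13 at the stricter p and 11 with a log2 fold change beyond 2 (11 to 18, fewest without TKO replicate 2). The 26 at day 6 without cytokines ranged from 21 to 28 (8 higher and 18 lower became 14 and 14 without wild-type replicate 1), and the 10 with cytokines became 4 beyond 2 (5 to 8). From EpiLCs to day 6, the wild-type counts of 30 without and 23 with cytokines ranged from 29 to 34 and from 21 to 24, the latter 12 beyond 2. Between the wild-type day 6 conditions the 30 ranged from 27 to 32. The TKO counts of 11 without and 14 with cytokines became 7 and 8 beyond 2 (9 to 11 in both), and the 11 became 23 with library size alone and 17 when only those libraries were fitted. The 3 calls between TKO day 6 conditions became 0 at the stricter p, 1 beyond 2, 10 with library size alone, 6 without a filter, 12 with only those libraries fitted, and 0 when any library was left out. The 17 interaction calls ranged from 15 to 24 (6 higher and 11 lower became 13 and 11 without that library). Calls over all genes moved as well. From TKO EpiLCs to day 6 without cytokines library size alone called 6242 genes (93% of them higher) and fitting only those libraries 4843, against 2604 higher and 2047 lower. Between the TKO day 6 conditions they called 3245 (3.36% higher) and 1963, against 425 higher and 506 lower, and fewer of all genes were called without any of the libraries. The median log2 fold change of all genes from EpiLCs to day 6 without cytokines was 0.727 in wild-type and 0.585 in TKO cells with library size alone, against 0.0492 and 0.0487 with TMM, to which the calls above are relative. The stricter p and the fold limit were applied to these counts only, not to single results. Of 79 single results 47 kept their call under every alternative fit, 32 lost it under at least 1, and 1 reversed. That was Peg13 at day 6 without cytokines, with a log2 fold change of 2.96 without wild-type replicate 1, against -5.79 without replicate 2. The cause was not tested.

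Deviations of same-numbered libraries correlated weakly over all genes, between -0.156 and 0.182 (median 0.0118, over 0.1 in 7 of 36 pairs of groups). Spread within each group also lowers such correlations, so they do not settle whether the replicate numbers pair the libraries. With the replicate number as a block the calls were 7, 20, 26 and 10 in the comparisons of TKO with wild-type, with Igf2 lost at day 2 and Peg13 at day 6 without cytokines and with Peg3 and Rtl1 gained in EpiLCs and Peg3 at day 6 without cytokines. They were 18 for the interaction, with Rtl1 gained.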

Other observations

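A second list held 39 imprinted genes outside the 44, of which 32 could be tested. In TKO against wild-type cells 6 were higher and 2 lower in EpiLCs, 6 and 5 at day 2 without cytokines, 9 and 12 at day 6 without cytokines, and 3 and 3 at day 6 with cytokines (edgeR, adjusted p below 0.05). The shares higher and lower were 18.8% and 6.25% in EpiLCs (all genes 7.57% and 3.18%), 18.8% and 15.6% at day 2 (18% and 14.8%), 28.1% and 37.5% at day 6 without cytokines (28.5% and 26.9%), and both 9.38% with cytokines (11.3% and 7.53%). Cobl, which encodes an actin nucleator and lies near Grb10, was higher by log2 fold changes of 4.53 at day 2 and 5.41 at day 6 without cytokines. Gab1, which encodes an adaptor of growth factor receptors and is imprinted in the placenta, was higher by 2.21 and 2.16. Calcr, which encodes the calcitonin receptor and lies in the Peg10 region, was higher in EpiLCs (2.10), at day 6 without (3.08) and at day 6 with cytokines (2.61). Th, which encodes the enzyme that makes L-DOPA and lies in the Igf2 region, was lower at day 6 without cytokines, with 509 and 56 counts in wild-type and 3 and 1 in TKO libraries, and Blcap, the gene within which Nnat lies, was lower there by -1.92. Nap1l5 had 28.9 and 3.89 normalised counts in replicates 1 and 2 of wild-type EpiLCs, 15.6 and 3.88 at day 2 and 299 and 6.95 at day 6 without cytokines, with replicate 1 higher as for Peg13.

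Of 12 genes that set or keep imprints, 2 were called in TKO EpiLCs by edgeR, both lower, Trim28 (-0.74) and Dnmt3b (-1.35), when 3.18% of all genes were lower. Without cytokines 7 were higher and 1 lower at day 6 (58.3% and 8.33%, against 28.5% and 26.9% of all genes). Dppa3, which encodes a protein that protects methylation in the early embryo, had 0.453 and 0 normalised counts in wild-type and 422 and 317 in TKO libraries. Dnmt3l, the cofactor of the de novo methyltransferases, had 1.81 and 0 against 878 and 879.7. Dnmt3b was higher by 2.71 and Zfp57 by 1.40, while Zfp445 was lower by -0.83. At day 6 with cytokines Dnmt3b was higher (1.13) and Dppa3 (-1.47), Dnmt1 (-0.73), Dnmt3l (-1.23) and Smchd1 (-0.79) were lower in TKO cells than in sorted wild-type cells, against 11.3% of all genes higher and 7.53% lower. Dppa3 is also one of the 6 PGC markers, whose sum at day 6 without cytokines was 109.7 and 105.4 in wild-type and 10418 and 9502 in TKO libraries, with 5 of the 6 called higher.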
